A study of Rattus norvegicus with 138 samples.

Results

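Oxidative phosphorylation makes most of the ATP of a neuron by passing electrons from NADH and succinate through complexes I to IV of the inner mitochondrial membrane and by using the resulting proton gradient to drive complex V, the ATP synthase. Most subunits are nuclear genes, whereas a small set, including some of the core subunits of complexes I, III and IV, is encoded in mitochondrial DNA. Several nuclear subunits exist as pairs of isoforms that differ between tissues. The genes described here are the nuclear subunit genes, taken as the rows whose symbol starts with Nduf followed by a, b, c, s or v and a digit (complex I), Uqcr (complex III), Cox4 to Cox8 (complex IV) or Atp5 (complex V), or is Sdha, Sdhb, Sdhc or Sdhd (complex II). Of the 32883 rows in each regional count table, 89 had such a symbol, and the 80 that averaged at least 1 CPM, the count scaled to the size of the library, in all 3 tables were kept. These 80 rows, with 77 symbols, hold 37 rows of complex I, 4 of complex II, 8 of complex III, 14 of complex IV and 17 of complex V, sorted by symbol alone, so that Ndufa4, which is now counted with complex IV, stands under complex I. The kept rows nearest the limit were Atp5md (mean of 1.06 to 1.35 CPM over the 3 tables), a second Ndufa10l1 row (1.10 to 1.28) and Ndufa1 (1.13 to 1.39). Just outside it were Uqcr10 (0.86 to 0.971), Cox7a1 (0.826 to 1.32) and Cox6b2 (0.489 to 1.68), and Cox8b, Ndufs6, Cox7b2, Cox8c, Cox6c-ps1 and a second Ndufv3 row were also left out.

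RNA was measured in tissue punches of 3 brainstem nuclei that set sympathetic outflow: the nucleus of the solitary tract (NTS), the caudal ventrolateral medulla (CVLM) and the rostral ventrolateral medulla (RVLM). The rats were female spontaneously hypertensive rats (SHRs, SHR/NHsd), an inbred model of hypertension, and normotensive Wistar-Kyoto (WKY, WKY/NHsd) controls, untreated and without transgenes. There were 5 SHRs and 5 WKY rats at 8 wk, 5 and 4 at 10 wk, and 6 and 3 at each of the later ages (12, 16 and 24 wk). The authors consider SHRs prehypertensive at 8 wk and take 10 to 12 wk as the onset of hypertension. They recorded blood pressure at 12 and 24 wk, and it was higher in SHRs at both. The strains differ in inherited background at every age. Each of the 46 rats gave 1 library per region, so that comparisons between regions are made within rats.

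The 138 libraries held from 5904570 to 17889406 counts (median 10143018). Neuronal markers were detected in every region, and all 8 had a mean of at least 1 CPM. Their summed level had a median of 8357 CPM over NTS libraries, 12330 over CVLM and 24980 over RVLM libraries, and the summed level of 8 oligodendrocyte markers had medians of 27706, 52141 and 45500 CPM. In a punch of mixed tissue, fewer cells of a type and less RNA per cell cannot be told apart. The library names in the labels carry a number, 1 or 2, whose meaning the labels do not give. It is 2 in all 9 rats at 10 wk, in 3 of 5 WKY rats at 8 wk and in 1 SHR each at 12 and 24 wk. The member level of a library, the median over the 80 rows of the log2 difference from each gene's mean in that region, had a median of -0.31 in the NTS libraries with number 2 and 0.06 in the others, of -0.14 and 0.08 in the CVLM, and of -0.17 and 0.01 in the RVLM. The same level over the 75 genes of the cytosolic ribosome had medians of -0.52 and 0.18, -0.35 and 0.18, and -0.42 and 0.12. Ndufa1, a small membrane-arm subunit of complex I, was at 0 in all 42 libraries with number 2 and in 27 of the other 96. Whatever number 2 stands for cannot be told apart from age at 10 wk, and it runs partly with strain at 8 wk. The RVLM library of WKY replicate 3 at 8 wk, although named with 2, had a member level of 1.39 and a ribosomal level of 1.41, far above the rest of its group. Levels nearly as high were seen in the RVLM of SHRs at 12 wk. There the member level ran from -0.72 to 1.16 and the ribosomal level from -0.69 to 1.34.

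**Figure D1:**
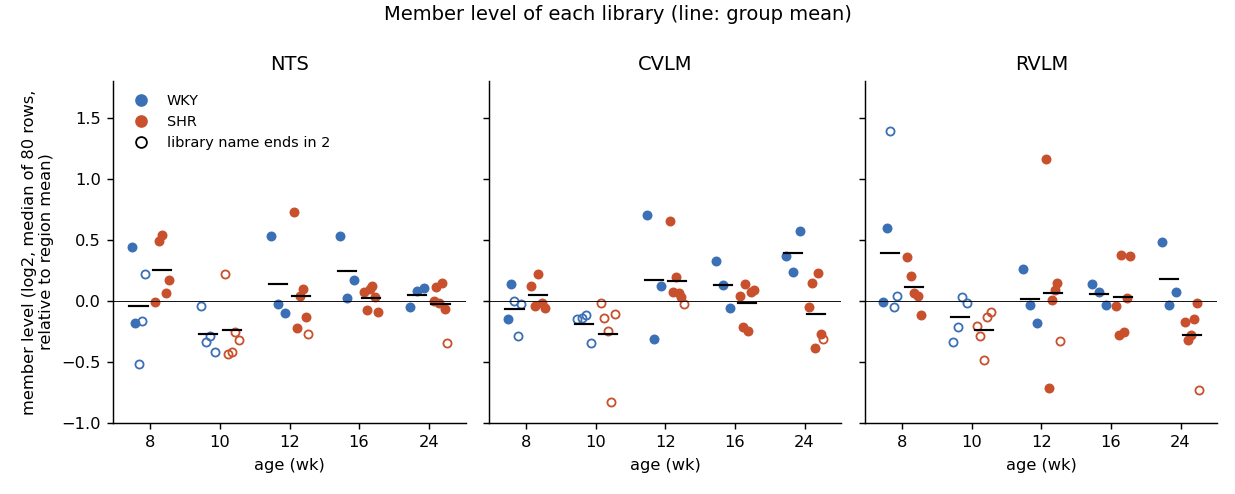
Member level of each library (vertical axis, log2: median over the 80 nuclear oxidative phosphorylation rows of the difference from each gene's regional mean) by region, strain and age in wk. Each point is 1 library and hollow points have a library name ending in 2. The 10-wk libraries sit mostly below 0, and WKY replicate 3 at 8 wk stands at 1.39 in the RVLM.

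The promoters of 6 members that carry the results below are printed because their genes moved in different comparisons. They are the 250 bases before the annotated start in RefSeq, assembly GRCr8, and the genes were chosen after their values were seen. RefSeq promoters matched 67 of the 80 rows. No entry was found for Ndufa10l1 and Cox4i2. Windows of 300 bases around the start (250 before, 50 after) were searched on both strands for 3 strings of letters known from promoters of respiratory genes: GCGC, any base and TGCGC, the site of nuclear respiratory factor 1 (NRF-1), and CCGGAAG and ACTTCCG, which are 2 forms of the ETS site bound by GABP and overlap each other on opposite strands. The NRF-1 letters stood in 13 of 66 member promoters (19.7%) and in 4.25% of all 33469 promoters, CCGGAAG in 30.3% and 8.75%, and ACTTCCG in 24.2% and 6.32%. Capitals mark a match, which is a match of letters and not a measured binding site. Ndufv3 (chr20:9613536-9613785, plus strand) holds the NRF-1 letters on the opposite strand and Sdhc (chr13:86098026-86098275, minus strand) holds ACTTCCG, and both were lower in SHRs in 2 regions. Ndufb8 (chr1:253362937-253363186, minus strand) and Atp5pb (chr2:196123738-196123987, minus strand) were lower in SHRs in the same 2 regions, and neither holds a match in the printed bases (Ndufb8 has 0 in the whole window, Atp5pb has 1 further on). Ndufa4l2 (chr7:65241919-65242168, plus strand) and Cox6a2 (chr1:192219717-192219966, minus strand), the isoform genes that differed most between regions, have none of the 3 strings in the window.
Ndufv3: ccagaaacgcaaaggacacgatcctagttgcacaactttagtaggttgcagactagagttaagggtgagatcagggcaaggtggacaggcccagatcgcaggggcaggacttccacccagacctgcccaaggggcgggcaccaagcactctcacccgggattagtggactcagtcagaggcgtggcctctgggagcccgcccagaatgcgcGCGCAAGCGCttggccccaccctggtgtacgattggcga
Sdhc: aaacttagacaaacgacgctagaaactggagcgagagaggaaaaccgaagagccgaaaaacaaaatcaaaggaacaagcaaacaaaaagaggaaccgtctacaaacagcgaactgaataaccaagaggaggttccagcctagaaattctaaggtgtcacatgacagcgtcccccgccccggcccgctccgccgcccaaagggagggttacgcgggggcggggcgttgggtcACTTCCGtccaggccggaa
Ndufb8: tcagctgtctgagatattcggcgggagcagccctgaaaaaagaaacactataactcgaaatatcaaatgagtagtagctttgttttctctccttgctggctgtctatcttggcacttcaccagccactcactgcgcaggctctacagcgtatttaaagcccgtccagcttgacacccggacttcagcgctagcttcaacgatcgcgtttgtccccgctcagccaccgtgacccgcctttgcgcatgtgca
Atp5pb: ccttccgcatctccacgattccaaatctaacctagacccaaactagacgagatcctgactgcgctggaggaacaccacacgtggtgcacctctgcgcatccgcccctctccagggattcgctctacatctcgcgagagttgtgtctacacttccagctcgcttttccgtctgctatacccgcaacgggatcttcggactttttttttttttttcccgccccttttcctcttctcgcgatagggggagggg
Ndufa4l2: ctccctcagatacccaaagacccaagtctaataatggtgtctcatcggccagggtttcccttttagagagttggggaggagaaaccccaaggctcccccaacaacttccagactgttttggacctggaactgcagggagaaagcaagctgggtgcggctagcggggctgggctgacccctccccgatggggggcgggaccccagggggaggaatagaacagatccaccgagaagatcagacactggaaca
Cox6a2: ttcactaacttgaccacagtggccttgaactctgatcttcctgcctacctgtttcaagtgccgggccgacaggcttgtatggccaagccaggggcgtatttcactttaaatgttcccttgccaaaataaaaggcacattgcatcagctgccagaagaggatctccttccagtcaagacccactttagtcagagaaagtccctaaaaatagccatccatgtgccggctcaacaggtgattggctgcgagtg

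The first comparison asked whether the 3 nuclei differ in these genes. In the main fit most subunits were lower in the NTS than in both ventrolateral regions. With total-count scaling the margin was smaller, and against the RVLM 27 of the 80 rows were called lower. Of the 80 rows, 70 were called lower in the NTS than in the CVLM and 0 higher, where called means below 0.05 after Benjamini-Hochberg adjustment, with the quasi-likelihood test of edgeR and each rat as a block. Among all 13116 genes tested, 65.6% were called, 32.2% as lower. The median log2 difference was -0.28 over the 80 rows and 0.00 over all genes. It was -0.25 in complex I (30 of 37 called), -0.20 in complex II (4 of 4), -0.22 in complex III (8 of 8), -0.35 in complex IV (13 of 14) and -0.28 in complex V (15 of 17). Against the RVLM, 60 rows were called lower in the NTS and 2 higher, with a median of -0.22 (0.00 over all genes, of which 72.4% were called and 36.2% were called lower). The rows called lower were 25 of 37 in complex I, 3 of 4 in complex II, 4 of 8 in complex III, 13 of 14 in complex IV and 15 of 17 in complex V. The CVLM and RVLM were closer to each other. Of the 80 rows, 19 were called higher and 3 lower in the CVLM, with a median of 0.05, where 54% of all genes were called. Scaling by total counts alone moved the median of all genes to 0.14 for NTS against CVLM and 0.16 for NTS against RVLM. On that scale 49 rows were called lower and 2 higher against the CVLM (median -0.15), and 27 lower and 12 higher against the RVLM (median -0.06). Relative to the median of all genes, the median of the members was -0.29 and -0.22 on both scales. A change of scaling shifts all genes by nearly the same amount, so this likeness was fixed in advance and is not a check.

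**Figure D2:**
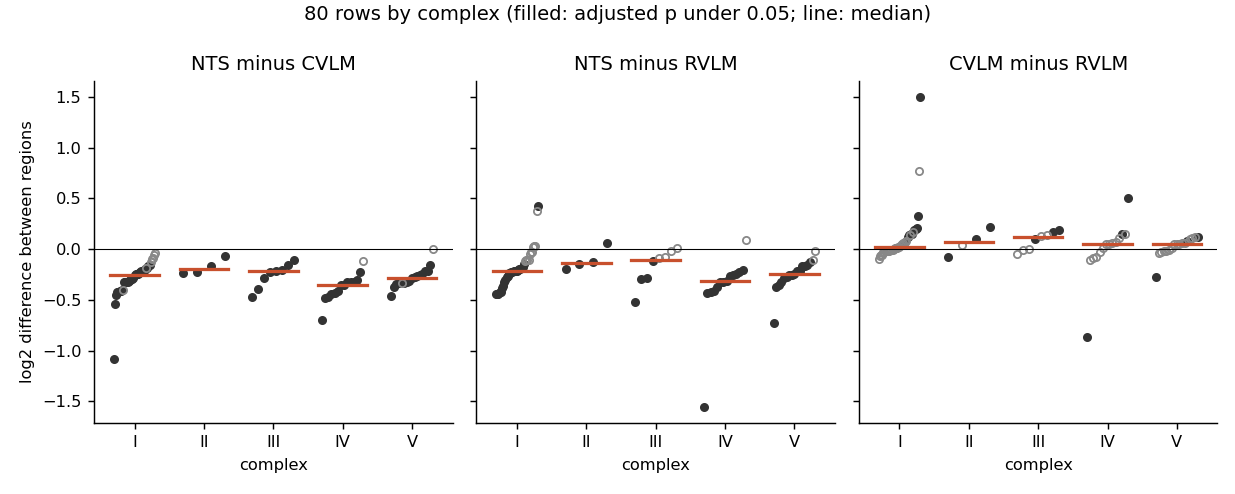
Log2 difference between regions (vertical axis) of each of the 80 rows, by complex, for NTS against CVLM, NTS against RVLM and CVLM against RVLM, as fitted over 46 rats with the rat as a block. Each point is 1 row. Nearly all points of the first 2 comparisons lie below 0, with medians of -0.28 and -0.22, and those of the third lie around 0.05.

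In complex I, Ndufv1, the flavoprotein at which NADH gives up its electrons, ranged in the NTS from 233 to 431 CPM (median 329), in the CVLM from 334 to 532 CPM (median 433) and in the RVLM from 322 to 589 CPM (median 435). It was lower in the NTS than in either other region in all 46 rats, although the ranges over rats overlap. The log2 differences were -0.41 (SE 0.027, adjusted p = 3.0e-23) and -0.42 (SE 0.027, adjusted p = 3.3e-24). Ndufs7, an iron-sulfur subunit at the ubiquinone end of the complex, fell in the same way (log2 -0.43 (SE 0.053, adjusted p = 4.2e-11) and -0.44 (SE 0.053, adjusted p = 6.6e-12)), being lower in the NTS in 44 and 45 of 46 rats. The core subunits Ndufs1, Ndufs3, Ndufs8 and Ndufv2 were also called lower in both comparisons. The accessory subunits Ndufb4, Ndufb11, Ndufc2 and Ndufa13 were not called in either, with log2 differences between -0.11 and 0.03.

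Complex II, succinate dehydrogenase, links the citric acid cycle to the chain. Its catalytic flavoprotein Sdha ranged in the NTS from 651 to 980 CPM (median 740), in the CVLM from 738 to 1050 CPM (median 861) and in the RVLM from 619 to 913 CPM (median 732). Sdha was highest in the CVLM, with a log2 difference of 0.22 (SE 0.02, adjusted p = 1.6e-16) from the RVLM, higher in 45 of 46 rats, and it was 1 of the 2 rows whose NTS level was called higher than the RVLM level, by 0.06 (SE 0.02, adjusted p = 0.0079). The iron-sulfur subunit Sdhb and the membrane anchor Sdhc were called lower in the NTS than in the RVLM (log2 -0.12 (SE 0.04, adjusted p = 0.0047) and -0.14 (SE 0.028, adjusted p = 4.7e-06)), but with total-count scaling both values turned positive without passing the test, at 0.040 and 0.018. On that scale Sdha differed by 0.22. Its call was lost without the rats of replicate number 1 (log2 0.035, adjusted p = 0.22) and with no filter on low counts (0.041, adjusted p = 0.15), both in edgeR.

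In complex III, the core protein Uqcrc1 ranged in the NTS from 595 to 988 CPM (median 770), in the CVLM from 868 to 1234 CPM (median 991) and in the RVLM from 772 to 1387 CPM (median 938). It was lower in the NTS than in the CVLM in all 46 rats, with a log2 difference of -0.40 (SE 0.027, adjusted p = 3.0e-22). Uqcrh, the hinge protein next to cytochrome c1, had the largest difference of the complex, -0.47 (SE 0.067, adjusted p = 3.3e-09) from the CVLM and -0.52 (SE 0.067, adjusted p = 1.2e-10) from the RVLM. In complex IV, Cox5a, a matrix-side subunit, ranged from 173 to 476 CPM (median 283) in the NTS and from 197 to 602 CPM (median 373) in the CVLM, and was lower in the NTS in 44 of 46 rats (log2 -0.47 (SE 0.053, adjusted p = 1.4e-12)). Cox4i1, the common isoform of subunit 4, differed by -0.35 (SE 0.056, adjusted p = 6.9e-08) from the CVLM and by -0.44 (SE 0.056, adjusted p = 9.8e-11) from the RVLM.

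In complex V, the catalytic beta subunit Atp5f1b ranged in the NTS from 2045 to 3399 CPM (median 2589), in the CVLM from 2701 to 3778 CPM (median 3158) and in the RVLM from 2529 to 4818 CPM (median 3284), and was lower in the NTS than in either region in all 46 rats. Its log2 differences were -0.32 (SE 0.025, adjusted p = 6.2e-20) and -0.35 (SE 0.025, adjusted p = 4.2e-22). Atp5f1d, the delta subunit of the central stalk, ranged in the NTS from 167 to 614 CPM (median 390), in the CVLM from 224 to 815 CPM (median 518) and in the RVLM from 241 to 1248 CPM (median 619). It rose from NTS to CVLM to RVLM, with log2 differences of -0.46 (SE 0.051, adjusted p = 7.4e-13) between the first pair and -0.27 (SE 0.051, adjusted p = 3.5e-06) between the second. The 3 genes Atp5mc1, Atp5mc2 and Atp5mc3 encode the same mature c subunit of the rotor ring. Atp5mc1 and Atp5mc3 were called lower in the NTS than in the CVLM (log2 -0.37 (SE 0.061, adjusted p = 1.6e-07) and -0.34 (SE 0.044, adjusted p = 9.4e-11)), while Atp5mc2 differed by 0.00 (SE 0.051, adjusted p = 0.99).

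The 2 rows with the largest called differences between regions, Ndufa4l2 and Cox6a2, were isoform genes of a few CPM. Ndufa4l2, a paralog of Ndufa4 known for induction by low oxygen, ranged in the NTS from 0.797 to 4.31 CPM (median 2.03), in the CVLM from 2.06 to 10.4 CPM (median 4.48) and in the RVLM from 0.297 to 3.12 CPM (median 1.63). It was higher in the CVLM than in the RVLM in all 46 rats, by 1.5 (SE 0.097, adjusted p = 4.2e-24), and it was the other row with a called NTS excess over the RVLM, by 0.42 (SE 0.1, adjusted p = 0.00012). Ndufa4 itself was also higher in the CVLM than in the RVLM, by 0.32 (SE 0.057, adjusted p = 1.0e-06). Cox6a2, the isoform of subunit 6a that is typical of heart and skeletal muscle, ran the other way. It ranged in the NTS from 0.338 to 5.0 CPM (median 1.38), in the CVLM from 0.75 to 5.37 CPM (median 2.27) and in the RVLM from 1.52 to 14.4 CPM (median 3.94), and was lower in the NTS than in the RVLM in 44 of 46 rats, by -1.56 (SE 0.12, adjusted p = 9.6e-20). The common isoform Cox6a1 differed by -0.26 (SE 0.06, adjusted p = 6.0e-05) in that comparison and by 0.06 (SE 0.059, adjusted p = 0.42) between CVLM and RVLM, where Cox6a2 differed by -0.86 (SE 0.12, adjusted p = 6.7e-10). Cox4i2, the isoform of subunit 4 known from lung and from pericytes, was higher in the CVLM than in the RVLM in 39 of 46 rats, by 0.50 (SE 0.069, adjusted p = 1.3e-09).

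**Figure D3:**
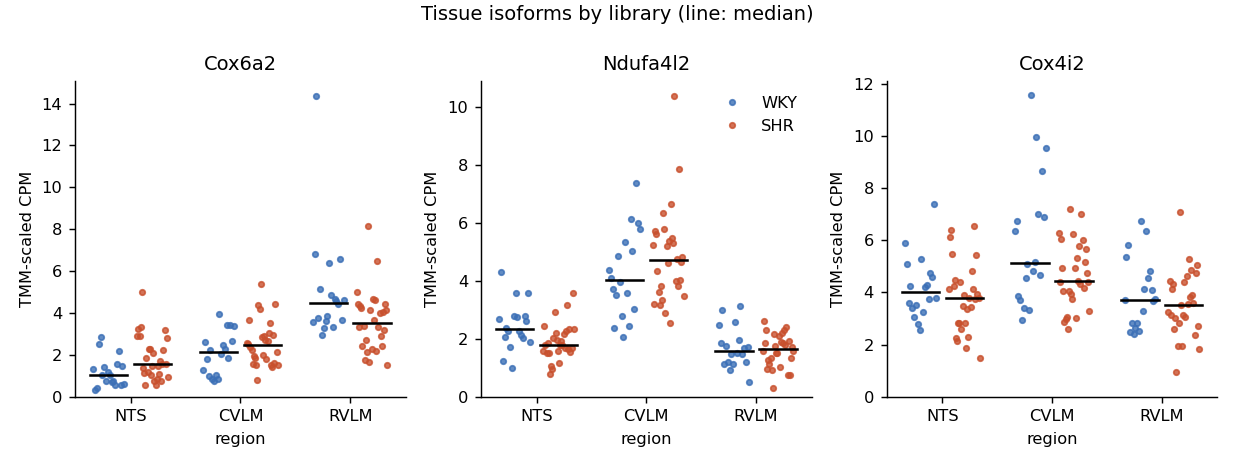
CPM of Cox6a2, Ndufa4l2 and Cox4i2 (vertical axes) in each library, by region and strain. Each point is 1 library. Cox6a2 is highest in the RVLM (median 3.94 CPM), and Ndufa4l2 (median 4.48 CPM) and Cox4i2 (median 4.80 CPM) are highest in the CVLM.

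Markers of other cells were set beside these values. The summed level of 5 markers of parvalbumin and fast-spiking neurons had medians of 235 CPM over NTS libraries, 413 over CVLM and 330 over RVLM libraries (115 to 390, 307 to 556 and 228 to 433). The summed level of 6 mural cell markers had medians of 48.4, 58.9 and 61.0 CPM (23.5 to 80.2, 34.8 to 82.8 and 36.4 to 86.1), with Acta2 under 1 CPM in each region. Of 5 skeletal muscle markers in the tables, 4 (Ckm, Mylpf, Tnni2 and Tnnt3) were under 1 CPM in each region, and the summed level had medians of 15.3, 13.4 and 13.7 CPM. The summed level of 5 motor neuron markers was highest in the RVLM, as was Cox6a2, but lowest in the CVLM, whereas Cox6a2 was lowest in the NTS. Its medians were 343, 110 and 1373 CPM (117 to 588, 32.0 to 193 and 575 to 2033), with Mnx1 under 1 CPM in each region. The neuronal sum given above rose from NTS to CVLM to RVLM, as did Cox6a2. The summed level of 7 noradrenergic and adrenergic markers was highest in the CVLM and lowest in the RVLM, as was Ndufa4l2. Its medians were 264, 328 and 106 CPM (137 to 372, 171 to 454 and 27.1 to 332). The part of any of these cells in the isoform differences was not tested.

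Other genes of energy metabolism were read in the same comparison. Of the 13 subunits encoded in mitochondrial DNA, 13 were called lower in the NTS than in the CVLM (median -0.24) and 13 lower than in the RVLM (median -0.32). All 7 electron and nucleotide carriers, 12 of 13 citric acid cycle genes and 13 of 16 glycolytic genes were called lower than in the CVLM, as were 25 of 39 assembly factors and 50 of 73 genes of the mitochondrial ribosome. By contrast, 8 of 75 cytosolic ribosomal genes were called lower and 3 higher, with a median of -0.02. Of 12 biogenesis regulators, 5 were called lower and 4 higher.

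The second comparison set SHRs against WKY rats, first as the mean of the differences at the 5 ages. In the NTS 2 of the 80 rows were called (11.2% of 13793 genes), in the CVLM 8 (12.3% of 13408) and in the RVLM 6 (10.8% of 13411), and all were lower in SHRs. The median log2 differences were 0.01, -0.13 and -0.15, against 0.01, 0.00 and 0.01 over all genes, and 29, 74 and 75 of the 80 rows lay below 0. Counts of called rows moved with single libraries: in the CVLM from 5 (without WKY replicate 1 at 12 or at 24 wk) to 19 (without WKY replicate 2 at 12 wk), with 13 without SHR replicate 1 at 12 wk, and in the RVLM from 3 (without WKY replicate 1 at 24 wk) to 11 (without SHR replicate 1 at 12 wk). In the NTS they rose to 5 without SHR replicate 1 at 12 wk and to 4 without SHR replicate 6 at 16 wk or WKY replicate 2 at 24 wk.

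Ndufa10l1, which the tables list under 2 identifiers and whose symbol marks it as like Ndufa10, an accessory subunit of the membrane arm of complex I, was the row that differed most. In the NTS its main row (ENSRNOG00000016470) ranged from 261 to 351 CPM (median 301) in WKY rats and from 121 to 194 CPM (median 148) in SHRs. In the CVLM it ranged from 371 to 507 CPM (median 415) in WKY rats and from 161 to 216 CPM (median 193) in SHRs, and in the RVLM from 356 to 641 CPM (median 439) and from 161 to 272 CPM (median 192). Every SHR library was below every WKY library in each region. The log2 differences were -1.03 (SE 0.045, adjusted p = 5.8e-22), -1.17 (SE 0.034, adjusted p = 9.6e-29) and -1.15 (SE 0.052, adjusted p = 1.3e-21). At single ages it was called lower in SHRs in 15 of 15 comparisons of region and age, with log2 values from -1.29 to -0.86. The second row (ENSRNOG00000062245) was near the detection limit, from 0.854 to 3.51 CPM (median 2.24) in WKY and from 0 to 2.01 CPM (median 0.368) in SHR rats in the NTS, and was also called lower in all 3 regions (log2 -2.52 (SE 0.38, adjusted p = 2.1e-06), -2.92 (SE 0.32, adjusted p = 1.9e-09) and -2.54 (SE 0.34, adjusted p = 2.0e-07)). The strains overlapped in this row, with 22, 27 and 25 of 28 SHR libraries below the lowest WKY library in the NTS, CVLM and RVLM. The tables hold no row named Ndufa10, which RefSeq lists as a separate gene and also as a synonym, so reads of near-identical copies may be split or pooled here. Whether strain variants in the gene change how its reads map was not tested.

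**Figure D4:**
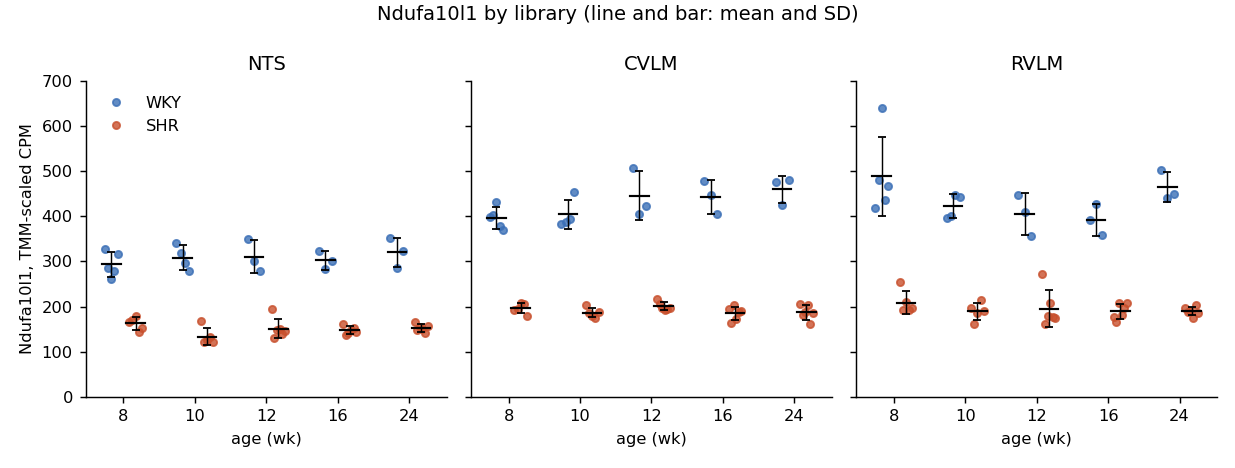
CPM of the main Ndufa10l1 row (vertical axis) in each library, by region, strain and age in wk. Each point is 1 library. The 28 SHR libraries lie below the 18 WKY libraries in each region, between 121 and 194 CPM against 261 to 351 CPM in the NTS.

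The other called rows moved far less and overlapped between strains. Ndufb8, an accessory subunit of the membrane arm, ranged from 702 to 1386 CPM (median 957) in WKY rats and from 562 to 1181 CPM (median 802) in SHRs in the CVLM, and from 665 to 2239 CPM (median 827) and from 421 to 1364 CPM (median 667) in the RVLM. Its log2 differences were -0.28 (SE 0.072, adjusted p = 0.0051) and -0.30 (SE 0.1, adjusted p = 0.0499), and -0.16 (SE 0.072, adjusted p = 0.17) in the NTS, where it was not called. The RVLM call was lost in 39 of 53 other settings, with adjusted p up to 0.15, and the CVLM call in 0 of 54. At single ages its value lay below 0 in 15 of 15 comparisons, of which 1 was called. Atp5pb, the b subunit of the stator that holds the catalytic head of complex V, ranged from 293 to 457 CPM (median 400) in WKY rats and from 267 to 426 CPM (median 328) in SHRs in the CVLM, with a log2 difference of -0.21 (SE 0.046, adjusted p = 0.0011), and -0.23 (SE 0.069, adjusted p = 0.021) in the RVLM.

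Ndufv3, an accessory subunit next to the NADH site, and Sdhc, a membrane anchor of complex II, were the others called in both ventrolateral regions. Ndufv3 ranged from 78.4 to 256 CPM (median 110) in WKY rats and from 46.2 to 168 CPM (median 92.5) in SHRs in the RVLM, and its log2 differences were -0.26 (SE 0.086, adjusted p = 0.037) in the CVLM and -0.40 (SE 0.11, adjusted p = 0.0081) in the RVLM. Its CVLM call was lost in 20 of 54 other settings (adjusted p up to 0.25) and its RVLM call in 1 of 53. Those of Sdhc were -0.15 (SE 0.041, adjusted p = 0.0082) and -0.18 (SE 0.056, adjusted p = 0.028). In the CVLM alone, Cox4i2 (-0.43 (SE 0.12, adjusted p = 0.0098)) and Ndufb6 (-0.22 (SE 0.071, adjusted p = 0.033)) were also called, which does not show that they differ from the other regions. Of 54 other settings, the call was lost in 2 for Cox4i2 and in 11 for Ndufb6 (adjusted p up to 0.073 and 0.16).

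Among the subunits encoded in mitochondrial DNA, the called genes were higher in SHRs. Of these 13, 8 were called higher in SHRs in the NTS (median log2 difference 0.27), 6 in the CVLM (0.22) and 1 in the RVLM (0.03), and none was called lower. The 1 gene called in the RVLM was Mt-nd5, a proton-pumping subunit of complex I, with log2 differences of 0.38 in both NTS and CVLM and of 0.25 in the RVLM. Of 75 cytosolic ribosomal genes, 1 was called higher and 1 lower in the NTS, 1 and 3 in the CVLM, and 1 and 1 in the RVLM, with medians of -0.02, -0.13 and -0.16. Of 39 assembly factors, 1 was called higher and 1 lower in the NTS, 1 and 4 in the CVLM, and 1 and 3 in the RVLM.

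**Figure D5:**
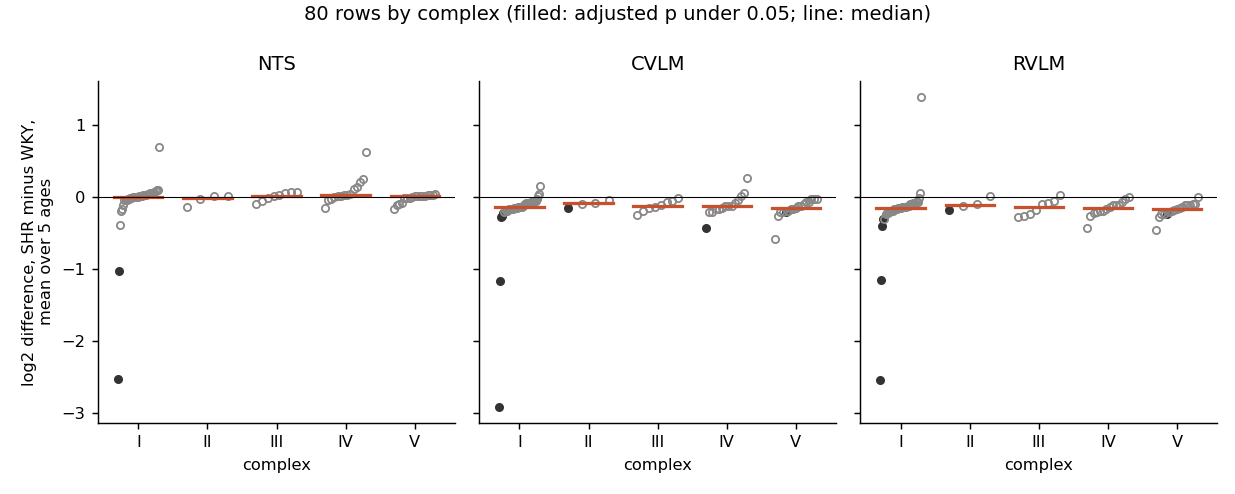
Log2 difference of SHRs from WKY rats, as the mean over 5 ages (vertical axis), of each of the 80 rows, by complex and region. Each point is 1 row. The main Ndufa10l1 row stands at -1.03, -1.17 and -1.15 in the NTS, CVLM and RVLM, while the medians over the rows are 0.01, -0.13 and -0.15.

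The strain difference was also taken at each age. At 8 wk the NTS had 2 called rows (5.79% of all genes), the CVLM 4 (7.64%) and the RVLM 7 (9.78%). The NTS calls were both Ndufa10l1 rows, lower in SHRs. Of the 80 rows, 72 lay above 0 (median 0.26, and -0.03 over all genes) and 22 were higher at an unadjusted p under 0.05. The share of all genes at that unadjusted limit is not given here, so the 22 cannot be set against it. At this age 3 WKY libraries and 0 SHR libraries of the NTS have a name ending in 2, so the number runs partly with strain in these values. Without WKY replicate 1, whose name ends in 1, the NTS count was 27, of which 25 were higher in SHRs. With a replicate block it was 12, of which 10 were higher. At 10 wk there were 1, 2 and 2 (4.44%, 3.18% and 2.3%), at 12 wk 1, 2 and 1 (3.1%, 2.62% and 1.7%), and at 16 wk 1, 2 and 2 (1.74%, 2.27% and 1.65%). At 24 wk there were 1, 23 and 1 (2.46%, 7.13% and 2.24%). Ndufa10l1 was among the called rows each time. From 10 to 16 wk no other gene was called. In the CVLM at 12 wk, where the deviations of all 3 same-numbered pairs correlated over 0.1, the replicate block left 1 of the 2, the main row.

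In the CVLM at 24 wk all 23 called rows were lower in SHRs, where 4.92% of all genes were called lower. They were 12 of 37 in complex I, 2 of 4 in complex II, 2 of 8 in complex III, 2 of 14 in complex IV and 5 of 17 in complex V, and the median over the 80 rows was -0.46 (0.02 over all genes). Ndufs4, an accessory subunit whose loss in humans causes Leigh syndrome, was at 253, 234 and 243 CPM in the 3 WKY rats and from 156 to 212 CPM (median 179) in the 6 SHRs (log2 -0.41 (SE 0.091, adjusted p = 0.0028)). Atp5f1c, the gamma subunit that forms the rotor shaft of complex V, was at 1036, 1005 and 1054 CPM in WKY rats and from 723 to 897 CPM (median 779) in SHRs (log2 -0.39 (SE 0.084, adjusted p = 0.0022)). For both genes every SHR was below every WKY rat.

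Cox7a2l, which ties complexes III and IV into supercomplexes, was at 275, 241 and 276 CPM in WKY rats and from 176 to 239 CPM (median 189) in SHRs (log2 -0.42 (SE 0.11, adjusted p = 0.011)). Sdhd, a membrane anchor of complex II, was at 491, 422 and 455 CPM in WKY rats and from 332 to 393 CPM (median 362) in SHRs (log2 -0.33 (SE 0.093, adjusted p = 0.023)). Neither gene overlapped between the strains at this age. The core subunit Ndufs3 (-0.46 (SE 0.13, adjusted p = 0.018)), the hinge protein Uqcrh (-0.58 (SE 0.18, adjusted p = 0.044)), the core protein Uqcrc2 (-0.25 (SE 0.08, adjusted p = 0.046)) and the c subunit gene Atp5mc2 (-0.78 (SE 0.21, adjusted p = 0.018)) were called lower as well. In 18 other settings the call was lost in 14 for Uqcrh, 12 for Uqcrc2, 7 for Sdhd, 4 for Atp5mc2 and 3 for Cox7a2l. The direction stayed the same each time.

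In the same comparison 40 of 75 cytosolic ribosomal genes were called lower and 1 higher (median -0.61), as were 16 and 1 of 73 genes of the mitochondrial ribosome (median -0.41), whereas none of the 13 mitochondrially encoded subunits was called (0 at an unadjusted p under 0.05, median -0.06). Among the marker lists, 1 of 8 neuronal and 1 of 8 oligodendrocyte markers were called lower, and 4 of 5 red cell markers were called lower. The neuronal sum ran from 11461 to 13036 CPM in WKY rats and from 10426 to 12933 CPM in SHRs. The part of these in the result was not tested. The count of 23 rested on few rats: it fell to 4 without WKY replicate 1 or 3, to 8 without SHR replicate 6, and to 11 without SHR replicate 3 or 5, and it was 46 without SHR replicate 4. It was 10 without the libraries named with 2 outside 10 wk, which at 24 wk is SHR replicate 6 alone. With the 24-wk libraries fitted alone it was 4. All were lower in SHRs each time.

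In the RVLM at 8 wk, 6 rows were called lower and 1 higher in SHRs. Ndufb8 was at 741, 1083, 2239, 846 and 891 CPM in the 5 WKY rats and 870, 707, 674, 643 and 522 CPM in the 5 SHRs (log2 -0.75 (SE 0.21, adjusted p = 0.022)). Atp5pb was at 356, 432, 752, 457 and 484 CPM and 398, 315, 331, 295 and 299 CPM (log2 -0.59 (SE 0.14, adjusted p = 0.0076)). In both genes the highest value was that of WKY replicate 3, and the groups overlapped. Both Uqcrb rows (ubiquinone-binding protein of complex III, log2 -0.95 and -0.83) and Atp5md (a small subunit of complex V, -1.54 (SE 0.5, adjusted p = 0.041)) were the others. Without WKY replicate 3 the count was 1, the main Ndufa10l1 row, and the median over the 80 rows went from -0.33 to -0.07. The count was 2 without SHR replicate 3, 4 or 5 and 15 without WKY replicate 1. It was 1 without the libraries named with 2 outside 10 wk, which include WKY replicate 3. Ndufa1, the row called higher, was at 0 in all 5 WKY libraries and at 0.314, 1.55, 3.46, 3.26 and 1.25 CPM in SHRs, so that no fold is given.

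In the CVLM at 8 wk, 2 rows were called higher in SHRs. Atp5f1a, the alpha subunit of the catalytic head, was at 1444, 1323, 1111, 1041 and 948 CPM in WKY rats and 1545, 1435, 1489, 1430 and 1294 CPM in SHRs (log2 0.29 (SE 0.085, adjusted p = 0.029)), and Atp5f1d differed by 0.58 (SE 0.19, adjusted p = 0.047). The 3 lowest Atp5f1a values were those of the WKY libraries named with 2. Without the libraries so named outside 10 wk, neither row was called.

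Whether the strain difference changed with age was tested with the strain by age interaction. The edgeR test called 0 of 80 rows in each region, as did DESeq2, and the shares called among all genes, by adjusted p, were 0.0145%, 0.0224% and 0.00746%. At an unadjusted p under 0.05 there were 2, 23 and 2 rows in edgeR, which cannot be set against these shares of adjusted calls. The larger count in the CVLM at 24 wk is thus not shown to differ from the other ages. The difference in strain effect between regions, as a mean over ages, was called in edgeR for 1 row, Cox6a2 between NTS and RVLM (1.81% of all genes called). It was called for 0 rows between NTS and CVLM (0.427% of all genes) and between CVLM and RVLM (0.282%). In these 2 comparisons 2 and 1 rows had an unadjusted p under 0.05, a limit unlike that of the shares. Cox6a2 ranged from 0.338 to 2.85 CPM (median 1.06) in WKY rats and from 0.546 to 5.0 CPM (median 1.55) in SHRs in the NTS, and from 2.93 to 14.4 CPM (median 4.49) and from 1.52 to 8.15 CPM (median 3.54) in the RVLM. The strain differences were 0.64 (SE 0.22, adjusted p = 0.051) and -0.42 (SE 0.16, adjusted p = 0.089), neither called by itself, and they differed by 1.07 (SE 0.25, adjusted p = 0.0053). Without the rats of replicate number 1 it was not called (adjusted p = 0.098 in edgeR).

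The last comparison set 24 wk against 8 wk within each strain, and it shares its libraries with the strain comparisons at those ages. In the CVLM of WKY rats 30 of the 80 rows were called higher at 24 wk and 0 lower (13.7% of all genes called, 9.14% higher), with a median of 0.43 (-0.01 over all genes). They were 13 of 37 in complex I, 0 of 4 in complex II, 1 of 8 in complex III, 8 of 14 in complex IV and 8 of 17 in complex V. Atp5f1a was at the 8-wk values given above and at 1697, 1650 and 1735 CPM at 24 wk, with no overlap (log2 0.52 (SE 0.097, adjusted p = 0.0011)). Ndufv1 was at 382, 451, 364, 340 and 334 CPM at 8 wk and at 525, 464 and 532 CPM at 24 wk, also without overlap (log2 0.43 (SE 0.094, adjusted p = 0.0032)).

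Cox4i1 was at 218, 287, 160, 127 and 151 CPM at 8 wk and at 302, 294 and 359 CPM at 24 wk (log2 0.75 (SE 0.2, adjusted p = 0.011)). Its 3 lowest 8-wk values, like those of Ndufv1, were those of the libraries named with 2. Ndufs7 differed by 0.81 (SE 0.18, adjusted p = 0.0033) and Uqcrc1 by 0.30 (SE 0.082, adjusted p = 0.013). In this comparison 48 of 75 cytosolic ribosomal genes (median 0.65) and 31 of 73 of the mitochondrial ribosome (median 0.43) were called higher, and 6 of 8 oligodendrocyte markers lower (median -0.42). Their part in the result was not tested. The count was 0 (24 unadjusted) without the libraries named with 2 outside 10 wk, which leaves 2 WKY rats at 8 wk, and the median was then 0.38. It was 4, 10, 12 and 15 without WKY replicate 3 or 1 at 24 wk and replicate 4 or 5 at 8 wk, and 16 without the pair of CVLM libraries whose labels give both 8 and 10 wk. No row was called in the other 5 comparisons by edgeR, with shares of all genes called, by adjusted p, of 0.464%, 0.179%, 0.232%, 0.649% and 0.358%. At an unadjusted p under 0.05, a limit unlike that of the shares, there were 2 and 9 rows in WKY rats in the NTS and RVLM. There were 16, 3 and 4 in SHRs in the NTS, CVLM and RVLM. DESeq2 called 1 row in the NTS of WKY rats and 0 in the other 4. Their medians were 0.03 and -0.30 in WKY rats and -0.31, -0.13 and -0.38 in SHRs.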

How the data were processed

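The authors mapped paired-end reads of tissue punches to the rat genome rn6 with STAR and RSEM, a tool that the submitters' processing notes also name, and deposited expected counts per gene (estimates of RSEM), 1 table for each region, not normalized. Before their own tests they adjusted counts for any batch effects with ComBat_seq, and the paper does not say what the batches were. The main fits here hold no batch term. Between 4.88% and 5.02% of the deposited values were not whole numbers, and counts were rounded. All 138 libraries were grouped by the region, strain and age in the labels. A pair of CVLM libraries, replicate 5 of each strain, are 8 wk by title and 10 wk by their age label, and were kept at 8 wk. No 2 libraries of a group were duplicates (270 pairs checked).

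Genes whose largest regularized-log value (DESeq2) was at least 3.5 were tested: 13793 in the NTS, 13408 in the CVLM, 13411 in the RVLM and 13116 in all 3. Each region was fitted alone by strain and age with edgeR's quasi-likelihood test (TMM scaling, robust), and the 3 regions together with the rat as a block, since each rat gave 1 library per region. P-values were adjusted by Benjamini-Hochberg over all genes tested, and called means an adjusted p under 0.05. SE is the log2 difference divided by the root of its F value. CPM are TMM-scaled, on 1 scale for all regions, and levels use log2(CPM + 0.5). Levels are not corrected for gene length, so they are compared within genes only. The counting is not stated to use strand, and pairs of near-identical rows can split reads. Depth sets the precision: at 10143018 counts (median), 1 CPM is about 10 reads, and rows of a few CPM carry counting error on top of the spread between rats.

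The genes named are, per complex and direction, up to 3 called rows with the smallest p, the catalytic core, isoform pairs and rows near the CPM limit. The members and lists were chosen with earlier results of these data known. Alternatives were total-count scaling, DESeq2 size factors, the DESeq2 test, no low-count filter, a replicate block, leaving out each library or name-2 libraries, a term for the name number, each age alone, and leaving out the pair with conflicting labels. Scripts were tested on simulated data. R 4.3.3, edgeR 4.0.16, limma 3.58.1, DESeq2 1.42.0, Python 3.11.15, pandas 2.3.3 and matplotlib 3.10.9 were used. No reference genome of the files' build was used here.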

Additional observations from a re-analysis of the deposited data

Results flagged for a closer look

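In groups of 4 to 6 libraries, 88 sets of values were looked at with Dixon's gap test at 95%, where chance alone gives about 1 in 20. Of these, 15 sets, from 8 libraries, had 1 value far from the rest. Sets that share libraries are not independent, so the count of 15 cannot be set against that share. They were 5 member levels and 10 gene values. The member level was 0.22 in the NTS of SHR replicate 1 at 10 wk, where the others ran from -0.44 to -0.25, and 0.73 in the NTS of SHR replicate 1 at 12 wk (others -0.27 to 0.09). It was -0.83 in the CVLM of SHR replicate 4 at 10 wk (others -0.25 to -0.01), 0.66 in the CVLM of SHR replicate 1 at 12 wk (others -0.03 to 0.19) and -0.35 in the CVLM of WKY replicate 4 at 10 wk (others -0.15 to -0.12).

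The main Ndufa10l1 row was at 167 CPM in the NTS of SHR replicate 1 at 10 wk (others 121 to 132), at 194 CPM in the NTS of SHR replicate 1 at 12 wk (others 131 to 149) and at 453 CPM in the CVLM of WKY replicate 4 at 10 wk (others 384 to 395). Its second row was at 0 CPM in the CVLM of SHR replicate 4 at 8 wk (others 0.375 to 0.511). Atp5f1c was at 901 CPM in the CVLM of WKY replicate 3 at 8 wk (others 761 to 791).

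The RVLM library of WKY replicate 3 at 8 wk stood far from its group in 5 rows. Atp5md was at 13.5 CPM (others 0.783 to 2.41), Ndufb8 at 2239 CPM (others 741 to 1083) and the main Ndufa10l1 row at 641 CPM (others 419 to 480). The Uqcrb rows were at 616 CPM (others 131 to 208) and 418 CPM (others 103 to 169). The same library had a member level of 1.39, which the gap test did not flag, and a ribosomal level of 1.41, which was not put to that test.

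The strain difference of Cox6a2 differed between NTS and RVLM by 1.07 on the log2 scale, by the interaction test in edgeR (adjusted p = 0.0053), from 0.64 in the NTS and -0.42 in the RVLM, neither of which was called by itself.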

How the results depend on the processing

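Of 243 recomputed counts of called rows, 206 stayed within 1.5 times the reported count and 37 did not. The cause was not tested. Total-count scaling gave 2 (NTS, 10 wk), 4 (NTS, mean over ages), 8 (CVLM, 8 wk) and 39 (NTS against RVLM), and it reversed Sdhc to 0.018 and Sdhb to 0.040 (adjusted p = 0.44 and 0.25) in NTS against RVLM. DESeq2 gave 4 (NTS, 8 wk) and 1 (24 against 8 wk, WKY, NTS). With no filter on low counts, more genes entered the adjustment and the counts were 2 (CVLM, 8 wk), 11 (CVLM, 24 wk), 13 (24 against 8 wk, WKY, CVLM) and 4 (RVLM, 8 wk). A term for the library-name number gave 2 (NTS, 10 wk), 2 (CVLM, 8 wk), 2 (24 against 8 wk, WKY, CVLM) and 1 (RVLM, 8 wk). Leaving out the name-2 libraries outside 10 wk gave 2 (NTS, 10 wk), 5 (NTS, mean), 1, 1 and 10 (CVLM at 8, 12 and 24 wk), 0 (24 against 8 wk, WKY, CVLM), 1 (RVLM, 8 wk) and 3 (RVLM, mean). Fitting each age alone gave 2 and 3 (NTS, 10 and 16 wk), 2, 1 and 4 (CVLM, 8, 12 and 24 wk) and 2 and 1 (RVLM, 8 and 16 wk). Without the pair of CVLM libraries with conflicting ages it was 1 (CVLM, 8 wk) and 16 (24 against 8 wk, WKY, CVLM). Without the rat as a block, CVLM against RVLM gave 13.

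Replicate numbers, which are those of the sample titles, are shared between strains. For WKY rats at 8 wk they differ from the rat numbers in the library names. Of 54 same-numbered pairs, 33 had a correlation of deviations over 0.1 (median 0.17, from -0.37 to 0.58). Pairs with different numbers were not computed, so these values have no baseline and do not show that same-numbered rats belong together. Every pair was over 0.1 in 4 of 15 sets of region and age (NTS at 12 and 24 wk, CVLM at 10 and 12 wk). A replicate block on these numbers gave 12 and 2 (NTS, 8 and 10 wk), 1 and 11 (CVLM, 12 and 24 wk) and 5 (CVLM, mean), and stayed within 1.5 times for the others. Between regions the same rat is shared by design, and the median correlation of its deviations was 0.27 for NTS and CVLM, 0.20 for NTS and RVLM and 0.08 for CVLM and RVLM.

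Leaving out 1 library gave counts from 1 to 27, 1 to 2 and 2 to 5 (NTS at 8 wk, 10 wk and mean), where 27 was without WKY replicate 1 and 25 of the 27 were higher in SHRs. It gave 0 to 3 (24 against 8 wk, WKY, NTS), 1 to 7, 1 to 2, 4 to 46 and 5 to 19 (CVLM at 8, 12 and 24 wk and mean), 4 to 36 (24 against 8 wk, WKY, CVLM), and 1 to 15, 1 to 2 and 3 to 11 (RVLM at 8 wk, 16 wk and mean). Leaving out all rats of 1 replicate number, with the dispersion trend of all libraries reused, gave 12 to 22 (CVLM against RVLM) and 65 to 72 (NTS against CVLM). It gave 59 to 62 (NTS against RVLM) and 0 to 1 (strain by region, NTS against RVLM). Of 790 values of named genes under other settings, 656 kept their direction and side of the threshold, 132 lost the call and 2 reversed. Of 1486 with 1 library or number left out, 1300 kept both and 186 lost the call. Rows of a few CPM, such as Ndufa1, Atp5md and the second Ndufa10l1 row, are limited by depth.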
